A study of Rattus norvegicus with 9 samples.

Results

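Genes of interleukins, chemokines, colony stimulating factors and their receptors were examined in cardiac RNA of rats. The members were the genes, listed in either of 2 deposited tables, whose symbol starts with Il, Ccl, Cxcl, Ccr, Cxcr or Csf and a number, with Cx3c or Ackr, or is Ccrl2. Il1a, Il1b, Il1rn, Il1r1, Il1r2, Il1rap, Il6, Il6ra, Il6st, Cxcl1, Cxcl2, Ccl3, Ccl4, Ccl5, Cxcl9, Cxcl10, Cxcl11, Cxcl12, Cxcr2, Cxcr4, Ackr3 and Csf3r were left out by the rule. It found 56 of the 5760 genes listed in either table. They comprised 15 chemokines, 4 chemokine receptors, 4 atypical chemokine receptors, 4 colony stimulating factors (Csf1, Csf2, Csf3 and Il34), 3 subunits of their receptors, 11 interleukins, 14 interleukin receptor subunits and the soluble antagonist Il18bp. The Cal and Model table listed 47 of them, the Cal and Con table listed 27, and 18 were in both.

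The study sequenced hearts of 9 male Sprague Dawley rats, 3 per group, drawn at random from groups of 8. Sham rats, the controls, underwent the operation without ligation, whereas the left anterior descending (LAD) artery was tied off in the model and Cal rats to induce heart failure. Rats of the Cal group received calycosin (Cal), an isoflavone of Astragalus, at 80 mg/kg per day from 24 h after surgery, and treatment lasted 28 days. Sham and model rats were given distilled water instead. The animals' age and the part of the heart taken were not given in the sources used here. The 3 libraries of a group came from different animals.

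The sample columns hold reads divided by a size factor per library (normalized counts), and each table has its own scale, so the same Cal library has slightly different values in both. Between 2860826 and 3998471 reads per library fell on genes listed for Cal and Model, and between 3270460 and 4659882 on genes listed for Cal and Con, while the total depth is unknown. Each table lists only genes that passed the authors' own test, so a gene missing from a table has no value there, and a listed gene had already been selected for a difference between its groups. Column headings contradict each other. For Cal and Model, the mean column headed Cal equals the average over the samples headed Model for 4288 of 4288 genes, and the reverse holds for the other mean column. In the Cal and Con table the mean column headed Model equals the average over the samples headed Cal for 2458 of 2458 genes. The name under which that table was deposited also pairs Model with Con. Names of libraries below follow the sample columns, and under the headings of the mean columns the names Cal and Model in every direction below would be exchanged. The libraries headed Cal are the same in both tables, with identical reads in 986 of 986 shared genes, so the comparisons are not independent of each other.

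Chemokines are small secreted proteins that attract leukocytes through G protein-coupled receptors on the cell surface, while atypical receptors bind chemokines without that signal and many remove them. Interleukins and colony stimulating factors mostly act through paired receptor chains that recruit Janus kinases and STAT factors, or, for the IL-1 and IL-17 receptor families, the adaptors Myd88 and Traf3ip2. In the infarcted heart these signals are known for recruiting neutrophils and then monocytes, and for sustaining the macrophages that clear and replace the lost muscle.

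Many promoters of these genes are known to carry sites for NF-kB or for interferon-activated factors, and the letters around such matches are shown for some of the members in which they were found. Rat promoters from RefSeq (assembly GRCr8, 250 bases before to 50 after each start) were found for 38 of the 56 members. The other 18 were not matched by rat symbol to a promoter of that full length. The letters GGGNNNTTCC, searched on both strands, were present in 5 of these 38 (13.2%) and in 5.37% of all 33469 promoters. Each line gives up to 20 bases on either side, read along the gene, with the matched letters in capitals, and on the plus strand of the gene a match on the other strand appears as the reverse complement. The rat gene that matched Cxcl5 is named Cxcl6 in this assembly, and the one for Il4ra is Il4r.
Cxcl5 (rat Cxcl6), chr14:17596476-17596525, minus strand: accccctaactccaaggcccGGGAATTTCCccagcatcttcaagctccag
Ccl7, chr10:67514016-67514065, plus strand: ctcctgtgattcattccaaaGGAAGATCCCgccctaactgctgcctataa
Ccl9, chr10:68868834-68868883, minus strand: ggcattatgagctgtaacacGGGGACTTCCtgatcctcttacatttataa
Ccl6, chr10:68883393-68883442, minus strand: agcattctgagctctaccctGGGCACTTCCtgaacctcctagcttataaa
Il4ra (rat Il4r), chr1:189545790-189545824, plus strand: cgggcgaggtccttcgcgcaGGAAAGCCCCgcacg
The match in Cxcl5 also reads as one on the other strand when shifted by a single base, and Ccl9 had another further from its start. The letters GAAANNGAAA, part of an interferon-stimulated response element, were found in 3 members (7.89%), namely Ccl19, Il18bp and Il19, and in 3.92% of all promoters.
Ccl19, chr5:61761186-61761235, minus strand: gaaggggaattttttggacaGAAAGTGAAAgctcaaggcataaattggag
Il18bp, chr1:165786906-165786936, minus strand: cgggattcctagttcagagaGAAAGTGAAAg
The letters TGANTCA of AP-1 were found in 6 members (15.8%; Ccl7, Cxcl14, Il15, Il15ra, Il16 and Il18) and 7.33% of all promoters, and TTCNNNGAA of STAT factors in 4 (10.5%; Ccl7, Csf2, Il17d and Il19) and 8.87%. These matches describe letters only. Of the 5 members with the NF-kB letters, Cxcl5 and Il4ra were lower and Ccl6 higher in the comparison with Model below, Ccl9 was inside its fold limit, and Ccl7 was listed only with Con.

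Libraries headed Cal were first compared with libraries headed Model, the comparison that asks how the treated hearts differ from untreated failing hearts. Of the 47 members listed, 36 were lower and 6 were higher in the libraries headed Cal by limma (adjusted p under 0.05 over all listed genes and a log2 fold change beyond 1). Among all 4288 listed genes 31.6% were lower and 28.4% higher by the same limits. The adjusted p alone was under 0.05 in 99.6% of these genes, which had already been selected on the same libraries. It therefore does not control a false discovery rate. All 13 interleukin receptor subunits and 8 of 9 interleukins were lower, whereas Ccl6, Ccl12, Cx3cr1, Ackr4, Csf1r and Il17d were the 6 higher members. The lower interleukins include Il17f and Il22, which had no read in the libraries headed Cal. The bound for Il22 was only 1.60-fold, inside the fold limit. The median log2 fold change over the members was -1.61, or -1.56 with the 3 genes that had no read in the libraries headed Cal set at their bound, against -0.52 over all listed genes. The groups did not overlap in 46 members, with Ccrl2 as the exception, and in 98.2% of all listed genes. In bulk cardiac RNA, fewer cells of a type and less RNA per cell cannot be told apart.

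**Figure D1:**
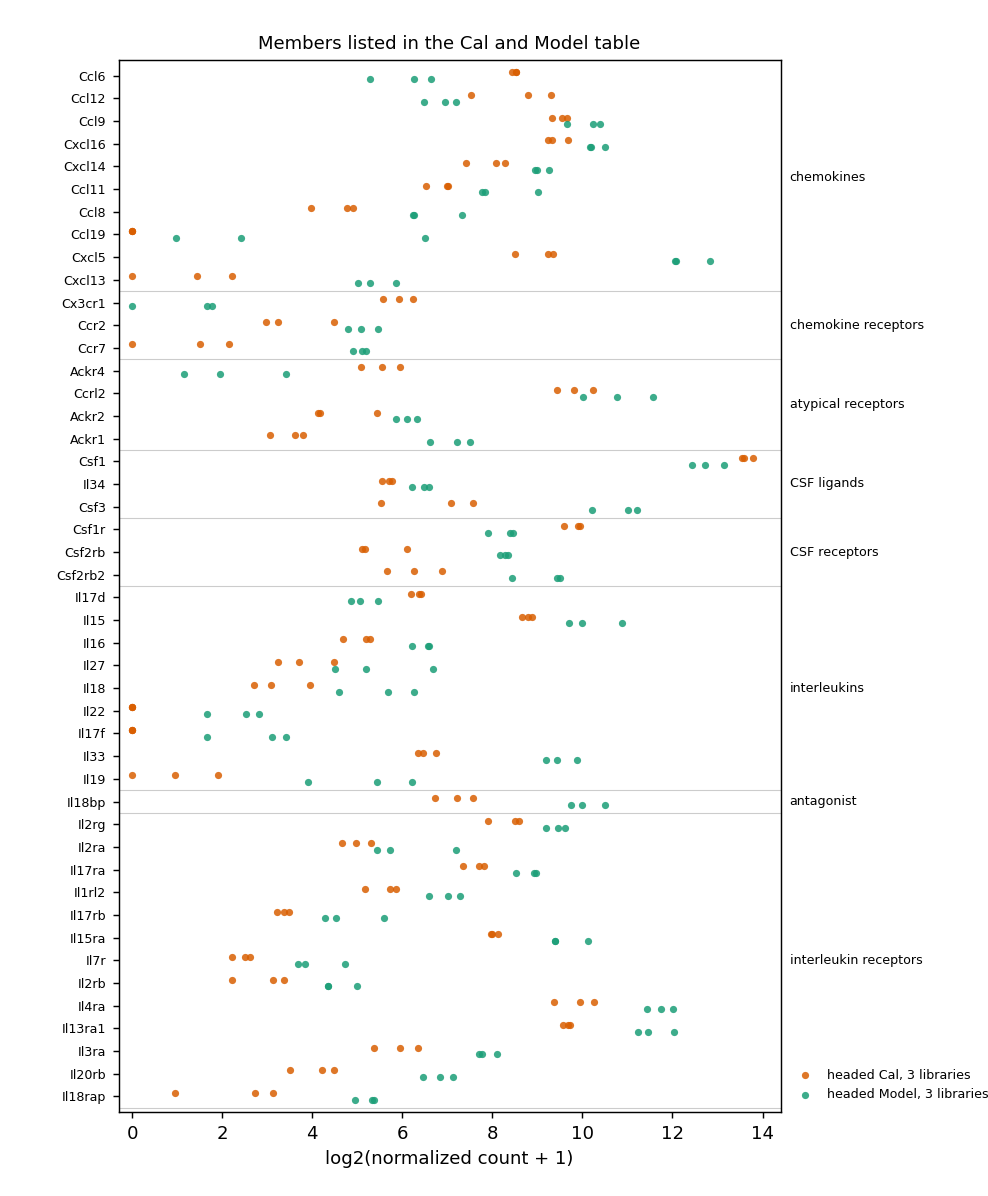
Level of the members listed in the Cal and Model table, 1 of the 47 left out, as log2(normalized count + 1) on the horizontal axis, with a point per library and the genes grouped by role. The interleukin receptors form a block in which every library headed Model lies to the right of every library headed Cal, and Ccrl2 is the one gene whose groups overlap.

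Markers of other cell types moved with these groups. Of 10 neutrophil markers 8 were listed and all 8 were lower in the libraries headed Cal, with a sum per library of 58.1 to 190.4 normalized counts against 783 to 894, and Mpo at 0 in the 3 libraries headed Cal. Of 15 monocyte and macrophage markers 9 were listed, 4 higher (Lyz2, Cd163, C1qa and C1qc) and 3 lower (Fcgr1, Ly6c2 and Itgam), with sums of 8012 to 8960 against 3845 to 5303. The T cell marker Lck, the only one of 13 listed, was at 1.84 to 6.83 against 36.7 to 154 normalized counts, and the NK cell markers Gzma and Gzmb, 2 of 8, summed to 4.61 to 6.57 against 53.7 to 85.3. Of 8 endothelial markers 7 were listed, 4 of them higher, with sums of 12165 to 14341 against 5006 to 6651. The listed B cell markers (2 of 7) went apart, Blk higher (log2 fold change 1.90) and Pax5 lower (log2 fold change -2.53), and summed to 35.1 to 48.7 against 31.3 to 65.9. So did the dendritic cell markers (2 of 7), Zbtb46 higher (log2 fold change 1.78) and the member Ccr7 lower, and their sum of 579 to 773 against 178 to 273 was mostly Zbtb46. The mast cell marker Kit (1 of 7) was at 59.1 to 95 against 156 to 261. Fibroblast markers (4 of 8, 2 of them higher) summed to 17378 to 21126 against 15696 to 22941, and no cardiomyocyte or red cell marker was listed. The part of these shifts in the members' levels was not tested.

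Among the 10 chemokines of this table, 6 were lower and 2 higher where Cal was the heading. Cxcl5, which attracts neutrophils and has the NF-kB letters shown above, was the highest of them per kilobase of gene length in the libraries headed Model, at 2845 normalized counts. Its normalized counts were 363, 599.8 and 646 in the libraries headed Cal 1 to 3 and 4258, 7311 and 4331 in those headed Model 1 to 3. Even the lowest of the libraries headed Model exceeded all those headed Cal (log2 fold change -3.30, SE 0.29, adjusted p = 2.0e-04). Cxcl14, a chemokine of many resting tissues, had 270.3, 169 and 312 against 491, 509.8 and 615 normalized counts. Its groups were apart as well (log2 fold change -1.14, SE 0.24, adjusted p = 0.0038), but without Cal 2 its log2 fold change was -0.88, adjusted p = 0.0074, short of the limit of 1. Cxcl16, the membrane-bound ligand of Cxcr6, stood at 606, 644 and 819.9 in the libraries headed Cal and 1168, 1439 and 1152 in those headed Model. It was below the fold limit despite separate groups (log2 fold change -0.87, SE 0.17, adjusted p = 0.0027). Zmynd15, on the opposite strand, overlaps it and was also lower, and strand was not stated for the counting. Cxcl13, which attracts B cells, ranged over 0 to 3.69 against 31.6 to 57.3 normalized counts, a ratio of 22.8-fold (95% interval 10.2 to 63.5) in favour of the libraries headed Model, and without Cal 2 its log2 fold change was -3.56 instead of -4.17.

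Of the CC chemokines, Ccl6 and Ccl9 lie side by side on mouse chromosome 11 in the tables, at 83587882 to 83593087 and 83572919 to 83578636, and both are ligands of Ccr1. Ccl6 was at 365, 344 and 367 in the libraries headed Cal and at 75.6, 37.8 and 98.7 in those headed Model. Every library headed Cal was above every library headed Model (log2 fold change 2.43, SE 0.34, adjusted p = 7.8e-04). Its neighbour Ccl9 had 642, 803 and 743 against 1348, 809.8 and 1208. The lowest library headed Model was just above the highest headed Cal (log2 fold change -0.59, SE 0.21, adjusted p = 0.0249), and the fold limit was not met. Both promoters hold the NF-kB letters, as printed above, and the fold changes of the 2 genes had opposite signs.

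The group of genes for monocyte and eosinophil chemokines on mouse chromosome 11 (82035571 to 82116799, build not named in the tables) gave another such split. Ccl12, a ligand of the monocyte receptor Ccr2, had normalized counts of 441, 184 and 634 in the libraries headed Cal and 123, 145 and 88.2 in those headed Model. It was higher in the libraries headed Cal in spite of a wide spread among them (log2 fold change 1.67, SE 0.44, adjusted p = 0.0084). Ccl11, the eosinophil attractant eotaxin, had 91.3, 128 and 127 against 217, 515 and 227. It was lower in the libraries headed Cal (log2 fold change -1.36, SE 0.35, adjusted p = 0.0078), with Model 2 far above the other two, and without Model 2 the log2 fold change was -0.96, adjusted p = 0.0093. Ccl8, in the same cluster, was at 14.8, 26.3 and 29.0 against 75.6, 159.8 and 74.8 and lower as well (log2 fold change -2.06, SE 0.40, adjusted p = 0.0026). Ccl19, the ligand that guides dendritic cells and T cells to lymph nodes, had no read in the libraries headed Cal and 4.32, 90.2 and 0.958 normalized counts in those headed Model. Almost all of its signal came from Model 2, without which the log2 fold change was -1.69, adjusted p = 0.0299. Against a floor of 3 reads per library (2.72 normalized counts) it was at least 11.7-fold lower, but without Model 2 the mean under the heading Model was 2.64, below that floor, and no bound can be given. The call (log2 fold change -3.30, SE 1.28, adjusted p = 0.0351) was lost when any library but Model 2 or Model 3 was left out, with an adjusted p of up to 0.0729 without Cal 1. Without Model 3 the log2 fold change was -4.46.

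Among the chemokine receptors Cx3cr1 was called higher, and Ccr2 and Ccr7 were called lower. Cx3cr1, the fractalkine receptor of resident macrophages and patrolling monocytes, ranged over 46.9 to 74.7 normalized counts in the libraries headed Cal and 0 to 2.44 in those headed Model (log2 fold change 4.77, SE 0.53, adjusted p = 3.7e-04). The ratio was 42.2-fold (95% interval 16.2 to 156), and its interval covers counting error only. The gene model of Cx3cr1 in the tables spans the listed genes Xirp1 and Gorasp1 on the same strand, of which Xirp1 went in the other direction (log2 fold change -1.39), so reads near shared parts are uncertain. Ccr2, which draws monocytes out of the bone marrow, had 21.2, 8.45 and 6.83 against 43.2, 32.9 and 26.8 normalized counts. Its groups were apart, with Cal 1 closest to the libraries headed Model (log2 fold change -1.56, SE 0.45, adjusted p = 0.0115). Ccr7, the receptor of Ccl19 on dendritic cells and naive T cells, was at 1.84, 0 and 3.42 against 29.2, 35.4 and 33.5. All 3 libraries headed Model were near each other and far above the others (log2 fold change -3.85, SE 0.56, adjusted p = 9.6e-04), with a ratio of 18.1-fold (95% interval 7.98 to 50.5) and a log2 fold change of -3.24 without Cal 2.

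Atypical receptors went both ways. Ackr1, which holds many chemokines on venular endothelium, had 7.38, 11.3 and 12.8 normalized counts in the libraries headed Cal and 97.2, 149 and 179 in those headed Model. The groups were far apart (log2 fold change -3.62, SE 0.33, adjusted p = 2.3e-04). Cadm3 overlaps Ackr1 on the same strand and had a log2 fold change of -0.95. Ackr2, a scavenger of inflammatory CC chemokines, ranged over 16.6 to 42.2 against 57.3 to 79.9 and was lower (log2 fold change -1.52, SE 0.39, adjusted p = 0.0078). Ackr4, which removes Ccl19 and related ligands, ranged over 32.9 to 60.9 against 1.22 to 9.72 and was higher (log2 fold change 3.35, SE 0.59, adjusted p = 0.0019), with a log2 fold change of 3.98 without Model 1. Ccrl2, which binds chemerin, was at 898, 695 and 1208 against 1039, 3026 and 1753. Its groups overlapped, since Cal 3 was above Model 1, and it was not called (log2 fold change -0.96, SE 0.38, adjusted p = 0.0397). Without Model 1 it passed the limits at -1.34, adjusted p = 0.0101, and without Cal 3 at -1.16, adjusted p = 0.0353.

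Colony stimulating factors drive the growth and survival of myeloid cells. Csf3, the factor for neutrophil production, had 45.2, 189.6 and 134 normalized counts in the libraries headed Cal and 1191, 2373 and 2070.3 in those headed Model. It was lower in each library headed Cal than in any headed Model (log2 fold change -4.09, SE 0.52, adjusted p = 5.9e-04), and without Cal 1, its lowest library, the log2 fold change was -3.49. Csf1, the growth factor of macrophages, was at 12027, 12288 and 14047 against 5522, 9022 and 6760.0. Its libraries headed Cal were all above those headed Model. The fold limit was not reached with the authors' size factors (log2 fold change 0.87, SE 0.21, adjusted p = 0.0056). It was passed without Model 2 (1.06, adjusted p = 0.0033) and under median-ratio (1.17, adjusted p = 0.001) and quantile scaling (1.71, adjusted p = 1.4e-04). Il34, the other ligand of the same receptor, was at 46.1, 53.5 and 51.2 against 88.6, 95.1 and 72.8. Its sign was the opposite one, and it too was inside the fold limit (log2 fold change -0.75, SE 0.21, adjusted p = 0.0111). Csf1r, that receptor, was at 961, 773 and 979.6 in the libraries headed Cal and 337, 239 and 349.8 in those headed Model. All libraries headed Cal were above those headed Model (log2 fold change 1.56, SE 0.19, adjusted p = 5.5e-04). Csf2rb, the beta chain shared by receptors of Csf2 and of IL-3 and IL-5, was at 33.2, 67.6 and 35.0 against 324, 289 and 309.6 (log2 fold change -2.81, SE 0.29, adjusted p = 3.0e-04). Csf2rb2, its near copy that serves IL-3 in mice, was at 49.8, 116 and 75.2 against 346, 729 and 696. Both beta chains were lower in the libraries headed Cal (log2 fold change -2.87, SE 0.39, adjusted p = 7.4e-04 for Csf2rb2). Reads may be split between these copies, and no rat gene of the name Csf2rb2 was found in RefSeq.

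Among the 9 interleukins the alarmin Il33, which is released from injured stromal and endothelial cells, had 87.6, 80.7 and 106 normalized counts in the libraries headed Cal and 586, 940.2 and 696 in those headed Model. The groups were well apart (log2 fold change -2.99, SE 0.22, adjusted p = 1.3e-04). Il15, which sustains NK cells and memory T cells, was at 445, 403 and 472 against 829, 1877 and 1011. It was lower in the libraries headed Cal (log2 fold change -1.40, SE 0.29, adjusted p = 0.0033), with Model 2 above the other libraries headed Model. Il18, an inflammasome product, was at 5.53, 7.51 and 14.5 against 50.8, 75.6 and 23.0 and lower too (log2 fold change -2.26, SE 0.52, adjusted p = 0.005). Its antagonist Il18bp, whose promoter letters for interferon-activated factors are printed above, was at 147, 105 and 189.6 against 1017, 1445 and 863. Each library headed Model had several times the level of each headed Cal (log2 fold change -2.91, SE 0.27, adjusted p = 2.4e-04). Il19, a relative of IL-10, was at 2.77, 0.939 and 0 against 14, 73.2 and 42.2. The ratio was 34.8-fold (95% interval 13.2 to 129.9), in favour of the libraries headed Model (log2 fold change -4.23, SE 0.71, adjusted p = 0.0016), and the log2 fold change was -4.87 without Model 1.

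The remaining interleukins were at low levels. Il17f and Il22, products of T cells and innate lymphoid cells, had no read in the libraries headed Cal. In those headed Model, Il17f had 2.16, 9.76 and 7.67 normalized counts and Il22 had 2.16 to 6.10. They were at least 2.40-fold and 1.60-fold lower against the floor of 3 reads per library. Il16, a chemoattractant for CD4 cells, ranged over 24.8 to 37.8 against 73.8 to 95.1 and was lower (log2 fold change -1.41, SE 0.26, adjusted p = 0.0022). Stard5, on the opposite strand, overlaps Il16 and was also lower (log2 fold change -1.61). Il27, which pairs with Ebi3 to form a cytokine that restrains T cells, ranged over 8.45 to 21.4 against 21.6 to 102. Its call (log2 fold change -1.65, SE 0.60, adjusted p = 0.0263) was lost without Cal 1, Cal 2, Model 2 or Model 3, with adjusted p-values of 0.0541 to 0.0800, and the log2 fold change without Model 2 was -1.04. Il17d, a divergent IL-17 family member of muscle and brain, was the single interleukin that was higher in the libraries headed Cal, at 72.3 to 84.5 against 28 to 43.1 (log2 fold change 1.20, SE 0.24, adjusted p = 0.0032).

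Interleukin receptors were lower in the libraries headed Cal without exception among the 13 listed. Il4ra, the chain shared by IL-4 and IL-13, was at 662, 1223 and 980.4 against 2787, 3432 and 4129 normalized counts. Il13ra1, its partner for IL-13, was at 844, 821 and 760.1 against 2795, 4215 and 2404, and was the highest of the listed interleukin receptor chains per kilobase in both groups (218 and 845 normalized counts). The log2 fold changes of this pair were near each other, -1.88 (SE 0.25, adjusted p = 7.0e-04) for Il4ra and -1.91 (SE 0.21, adjusted p = 3.7e-04) for Il13ra1. Il15ra, which presents IL-15 on the cell surface, was at 252, 252 and 277 against 673, 1118 and 672, with the highest value in Model 2 (log2 fold change -1.61, SE 0.22, adjusted p = 7.5e-04). Il2rg, the common gamma chain of IL-2, IL-4, IL-7 and IL-15 receptors, was at 239, 388 and 363 against 703, 777 and 579.9. Its groups did not overlap, but its fold was close to the limit (log2 fold change -1.08, SE 0.22, adjusted p = 0.0033), and without Cal 1 the log2 fold change was -0.86, adjusted p = 0.0099 and without Model 2 -0.98, adjusted p = 0.0119. Il2rb, the signalling chain of IL-2 and IL-15, was at 3.69, 9.39 and 7.69 against 19.4, 19.5 and 30.7 and lower (log2 fold change -1.66, SE 0.41, adjusted p = 0.0068). Il2ra, the high-affinity chain of activated and regulatory T cells, ranged over 24.4 to 38.4 against 42.2 to 146. It was called (log2 fold change -1.14, SE 0.47, adjusted p = 0.0444), yet the call was lost without any library other than Model 3 and with the replicate number as a block (adjusted p = 0.0651). Without Model 2, its highest library, the log2 fold change of Il2ra was -0.60, adjusted p = 0.0939.

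The receptor chains of the IL-17 and IL-1 families and of single cytokines followed. Il17ra, the chain that binds Il17f among others, had 161, 224 and 208 normalized counts in the libraries headed Cal and 366, 488 and 499 in those headed Model. Its groups were apart (log2 fold change -1.19, SE 0.20, adjusted p = 0.0016). Il1rl2, the receptor of the IL-36 cytokines, was at 35.1, 57.3 and 52.1 against 127, 154 and 94.9 and lower (log2 fold change -1.36, SE 0.28, adjusted p = 0.0034). Il18rap, the accessory chain of the IL-18 receptor, was at 0.922, 5.63 and 7.69 against 38.9, 40.2 and 29.7. It was lower (log2 fold change -2.94, SE 0.57, adjusted p = 0.0028), with a log2 fold change of -2.28 without Cal 1. Il20rb, a chain for IL-19, IL-20 and IL-24, was at 17.5, 10.3 and 21.4 against 87.5, 113 and 139 (log2 fold change -2.75, SE 0.33, adjusted p = 5.1e-04), and Il3ra, the IL-3 binding chain, was at 60.9, 40.4 and 80.3 against 206, 218 and 272 (log2 fold change -1.97, SE 0.28, adjusted p = 8.8e-04). Both had every library headed Model above every library headed Cal. Il7r, of lymphocytes, and Il17rb, of the IL-25 receptor, were scarce, at 3.69 to 5.12 against 11.9 to 25.6 and 8.30 to 10.2 against 18.4 to 47.6 normalized counts, and had log2 fold changes of -1.64 (SE 0.40, adjusted p = 0.0062) and -1.44 (SE 0.40, adjusted p = 0.0106).

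The second table compared the libraries headed Cal with those headed Con, the sham hearts. By the heading of its mean column this is the comparison of model with sham hearts. Of 27 members listed, the libraries headed Cal had 21 higher and 4 lower, where 18% of all 2458 listed genes were higher and 10.9% lower by the same limits. All 10 chemokines, the 3 colony stimulating factors and 3 of 4 interleukins were higher, while Ccr2, Cx3cr1, Ackr2 and Il16 were lower. The median log2 fold change was 1.96 over the members, also with Csf2 and Csf3 set at their bound, and 0.37 over all listed genes. The groups did not overlap in 27 of 27 members and in 97.4% of all listed genes.

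**Figure D2:**
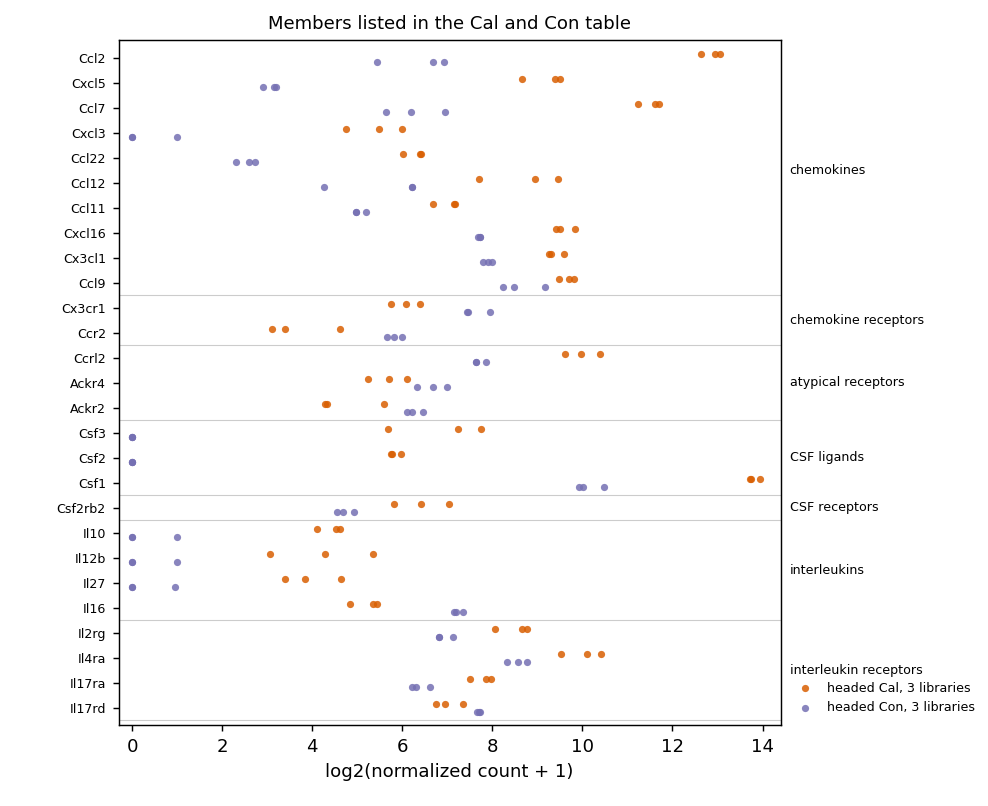
Level of each of the 27 members listed in the Cal and Con table, as log2(normalized count + 1), with a point per library and the genes grouped by role. Ccl2, Cxcl5, Csf2 and Csf3 show the widest gaps, with the libraries headed Cal to the right, and Ccr2, Cx3cr1, Ackr2, Ackr4, Il16 and Il17rd lie in the opposite order.

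Fewer cell type markers were listed here. Of 10 neutrophil markers S100a8 and S100a9 were listed, both higher in the libraries headed Cal, and their sum was 48.5 to 183 normalized counts against 13.0 to 28.5 in those headed Con. Among the 15 monocyte and macrophage markers 2 were listed and went apart. Cd14 was higher (log2 fold change 3.44), and Mrc1 was lower but inside the fold limit (log2 fold change -0.49). Their sum of 2001 to 2755 against 1094 to 1210 followed Cd14, with means of 1612 against 146, while Mrc1 had 703 against 988. No T cell, B cell or NK cell marker was listed. Endothelial markers, 6 of 8 listed, summed to 13916 to 15412 against 20031 to 22912, with 1 higher and 1 lower, and 4 of 8 fibroblast markers, 1 of them lower, summed to 9550 to 12371 against 14389 to 16008. The cardiomyocyte markers Myh6, Actn2 and Ryr2 were the 3 of 10 listed and summed, mostly as Myh6, to 388869 to 392591 against 290268 to 364412 normalized counts. None of them was called, with log2 fold changes of 0.26 to 0.31. Of the dendritic cell markers (2 of 7) Clec9a was lower (log2 fold change -1.63) and Zbtb46 was not called (log2 fold change 0.80), and their sum, mostly Zbtb46, was 665 to 884 against 463 to 564. Mast cell markers (2 of 7, 1 of them lower) summed to 98.9 to 133 against 227 to 256. Of 6 red cell genes 4 were listed, 1 of them higher, and summed to 11104 to 14863 against 6643 to 10394. Their part in the members' levels was not tested.

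Ccl2, the main monocyte attractant, had 6313, 8526 and 7848 normalized counts in the libraries headed Cal and 121, 101 and 42.5 in those headed Con. Per kilobase it was the highest member in the libraries headed Cal (6645 normalized counts), and the groups were far apart (log2 fold change 6.52, SE 0.34, adjusted p = 2.7e-06). Ccl7, its neighbour and a ligand of the same receptor, was at 3111, 2401 and 3336 against 71.7, 122 and 48.6. It too was far higher (log2 fold change 5.26, SE 0.30, adjusted p = 3.5e-06). Ccl12, the third ligand of Ccr2 in the same cluster, was at 493, 206 and 707 against 73.6, 73.7 and 18.2, with Con 3 below the other libraries headed Con (log2 fold change 3.13, SE 0.60, adjusted p = 0.0022), and without Con 3 the log2 fold change was 2.48. Ccl11 was at 102, 143 and 142 against 35.4, 30.4 and 30.4. All libraries headed Cal were above those headed Con (log2 fold change 1.96, SE 0.21, adjusted p = 1.4e-04). Ccl9 was at 718, 899.8 and 828 against 299, 573 and 356. Its fold was close to the limit (log2 fold change 1.04, SE 0.22, adjusted p = 0.0035) and fell short of it without Cal 2, Con 1 or Con 3, with log2 fold changes of 0.97, 0.84 and 0.97.

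Cxcl5 was at 405, 672 and 719.8 in the libraries headed Cal and 6.52, 7.86 and 8.10 in those headed Con. The libraries headed Con held only a few reads each (log2 fold change 6.10, SE 0.25, adjusted p = 8.6e-07). Cxcl3, another neutrophil attractant of the same cluster on mouse chromosome 5, ranged over 25.8 to 63.1 against 0 to 0.982 normalized counts and had a ratio of 136-fold (95% interval 24 to 5405). Ccl22, a ligand of Ccr4 made by macrophages and dendritic cells, ranged over 64.2 to 84.7 against 3.93 to 5.59 (log2 fold change 3.74, SE 0.29, adjusted p = 2.0e-05). Cxcl16 was at 678, 722 and 914 against 209.7, 203 and 209.5. The libraries headed Con were close to each other and all lower (log2 fold change 1.88, SE 0.13, adjusted p = 1.3e-05). Cx3cl1, the membrane-anchored fractalkine of endothelium, was at 613, 628 and 773 against 221, 239.7 and 254 and was likewise higher (log2 fold change 1.49, SE 0.13, adjusted p = 3.8e-05).

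Ccr2 and Cx3cr1, receptors of these chemokines, went the other way. Ccr2 had 23.7, 9.47 and 7.62 normalized counts in the libraries headed Cal and 55.0, 62.9 and 49.6 in those headed Con. It was lower in each library headed Cal than in any headed Con (log2 fold change -2.11, SE 0.41, adjusted p = 0.0023). Cx3cr1 was at 83.6, 52.6 and 66.7 against 244, 175 and 173 and was lower too (log2 fold change -1.54, SE 0.22, adjusted p = 6.8e-04). Csrnp1, listed in this table on the same strand within the span of Cx3cr1, had a log2 fold change of 3.39, the opposite sign. Ackr2 ranged over 18.6 to 47.4 against 68.0 to 87.4 and was lower (log2 fold change -1.53, SE 0.36, adjusted p = 0.0052). Ackr4 was at 68.1, 36.8 and 51.4 against 126, 79.6 and 101, just inside the fold limit (log2 fold change -0.98, SE 0.27, adjusted p = 0.0092), and passed it without Cal 1 or Con 2 (log2 fold changes -1.19 and -1.14). Ccrl2, in contrast, was at 1005, 779 and 1346 against 198, 199 and 229.8 and higher (log2 fold change 2.28, SE 0.19, adjusted p = 3.1e-05).

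Csf1 stood at 13451, 13778 and 15661 in the libraries headed Cal and 1031, 1417 and 966 in those headed Con. The ranges were far apart (log2 fold change 3.67, SE 0.14, adjusted p = 7.2e-07). Csf3 was at 50.6, 213 and 149 in the libraries headed Cal and Csf2, which drives granulocyte and macrophage formation, at 53.6, 52.6 and 61.9. Neither had a read in any library headed Con. Against the floor of 3 reads per library they were at least 47.0-fold and 19.2-fold higher. Csf2rb2 was at 55.7, 130.5 and 83.8 against 22.4, 24.6 and 29.4 and higher (log2 fold change 1.71, SE 0.32, adjusted p = 0.0021).

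The interleukins Il10, which restrains macrophages, Il12b, the subunit shared by IL-12 and IL-23, and Il27 each had 1 read in all in the libraries headed Con. They ranged over 16.2 to 23.7, 7.37 to 40.0 and 9.47 to 23.8 normalized counts in the libraries headed Cal. Their ratios to the libraries headed Con were 63.2-fold (95% interval 10.9 to 2539), 69.5-fold (95% interval 12 to 2784) and 48.7-fold (95% interval 8.33 to 1965). Il16 was at 42.3, 40.0 and 27.6 against 142, 163 and 146. It was the single interleukin that was lower in the libraries headed Cal (log2 fold change -2.03, SE 0.21, adjusted p = 1.3e-04). Il4ra was at 741, 1371 and 1093 against 378, 433 and 319.9 (log2 fold change 1.47, SE 0.22, adjusted p = 7.7e-04), Il2rg at 267, 435 and 405 against 139, 111 and 111 (log2 fold change 1.58, SE 0.20, adjusted p = 3.8e-04), and Il17ra at 181, 252 and 231 against 78.3, 97.2 and 73.9 (log2 fold change 1.40, SE 0.19, adjusted p = 4.3e-04). These 3 receptor chains were higher in every library headed Cal than in any headed Con. Il17rd, a receptor-like protein also known as an inhibitor of growth factor signalling, was at 161, 106 and 122 against 212, 201 and 206. Its groups were apart, with those headed Con above, but the fold limit was not met (log2 fold change -0.69, SE 0.17, adjusted p = 0.0066).

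**Figure D3:**
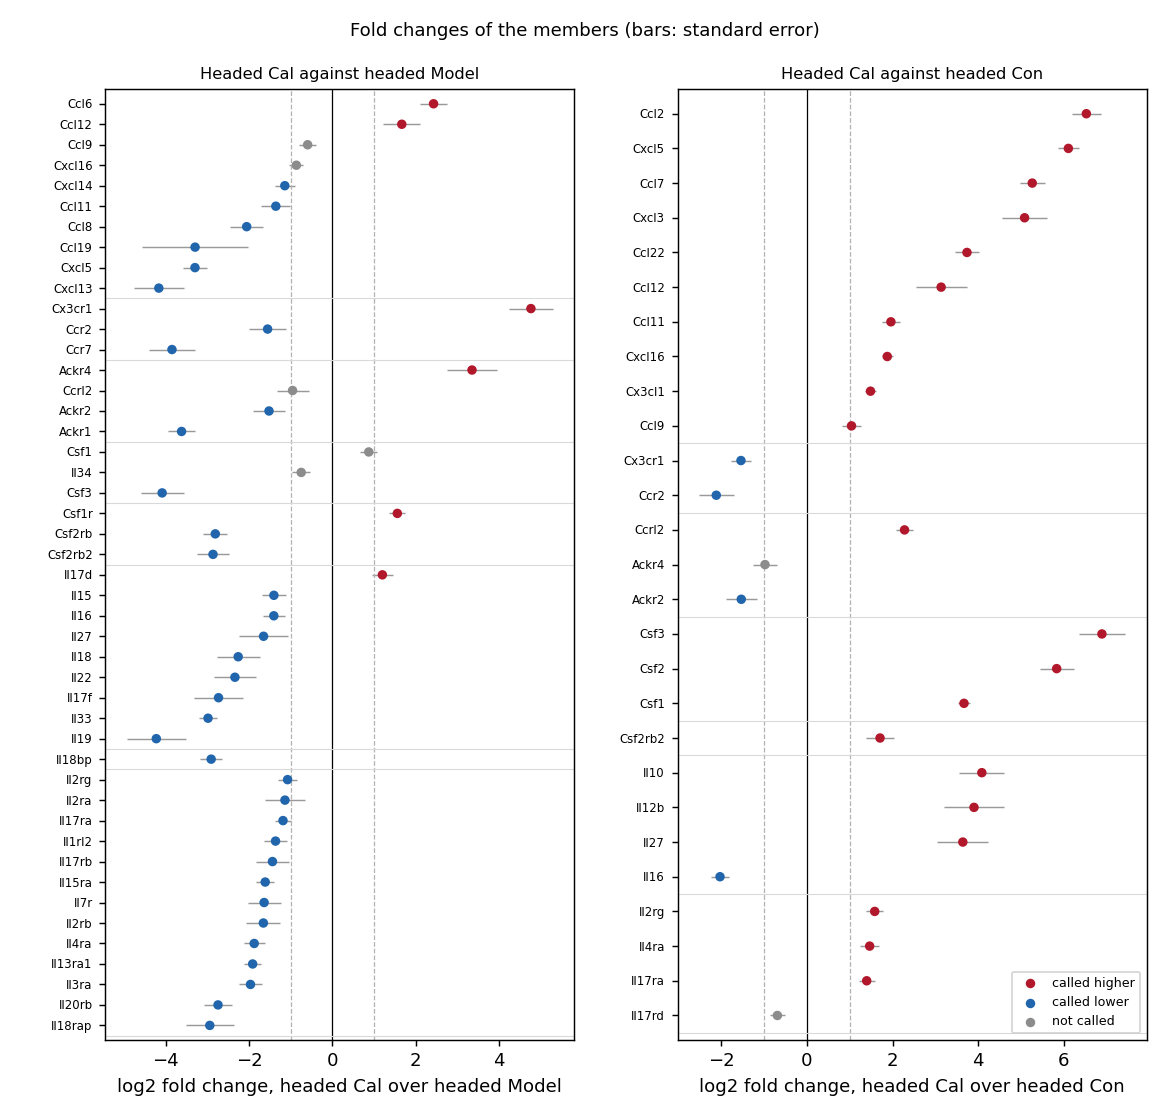
Log2 fold change of the members, 1 left out, with standard errors (bars), with Cal over Model (left) and Cal over Con (right) by sample heading. Dashed lines mark the limit of 1 either way, and most members lie left of 0 in the first panel and right of 0 in the second, while both panels use the same libraries headed Cal.

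Ligands and receptors were then set beside each other. A list of 72 pairs of a ligand with a receptor chain or antagonist was used. Both sides were listed as members in the same table in 16 cases, where Ccl12 with Ccr2 counts once in each table. Levels are compared here per kilobase of gene length. The lengths are those of mouse genes, so comparisons between different genes in these rat samples are uncertain. In the Cal and Model table, Ccl19 and Ccr7 were both lower in the libraries headed Cal. They had 36.7 and 16.5 normalized counts per kilobase in those headed Model and 0 and 0.887 in those headed Cal. Almost all of the Ccl19 signal came from Model 2, without which its mean was 2.64 normalized counts, below the floor of 2.72. Il15 and all 3 chains of its receptor were lower together, where Il15 stood at 195 normalized counts per kilobase against 548 and Il15ra at 58.5 against 185. Il2rb was the scarce chain of that complex, at 1.61 against 5.41 per kilobase, and Il2rg had 138 against 288. Il18, Il18rap and Il18bp were also lower together. The antagonist exceeded the cytokine per kilobase in both groups, at 48.6 for Il18bp and 8.91 for Il18 in the libraries headed Cal and 366 and 48.3 in those headed Model. Il19 with Il20rb and Il17f with Il17ra were lower on both sides, but the pair of Il19 and Il20rb was added to the list after its values were seen.

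Other pairs had sides that differed in direction. Ccl12 was higher and its receptor Ccr2 lower in the libraries headed Cal than in those headed Model. Against the libraries headed Con, all 3 listed ligands of Ccr2 (Ccl2, Ccl7 and Ccl12) were higher while Ccr2 was lower, with 6645 normalized counts per kilobase of Ccl2 and 2.01 of Ccr2 in the libraries headed Cal. In those headed Con the same genes had 77.6 and 8.26 per kilobase. Cx3cl1 was higher and Cx3cr1 lower, at 171 and 15.0 per kilobase in the libraries headed Cal and 60.6 and 43.8 in those headed Con. Csf2 and Csf2rb2 were both higher, but Csf2rb2 is the copy that serves IL-3 in mice. Csf2rb, the beta chain shared by the Csf2 receptor, was not listed with Con, so Csf2 had no receptor chain of its own there. Csf1r was higher in the libraries headed Cal than in those headed Model, and of its ligands Csf1 exceeded Il34 per kilobase in each group, at 2421 against 25.7 and at 1345 against 43.6.

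The 18 members listed in both tables have levels in all 3 groups. For these the values of the libraries headed Con were multiplied by 0.894, the ratio at which the shared libraries headed Cal agree between the tables (0.892 to 0.897), and no test was run across tables. Levels increased from Con over Cal to Model without overlap between neighbours in Ccl9, Ccl11, Cxcl5, Cxcl16, Csf2rb2, Csf3, Il2rg, Il4ra, Il17ra and Il27. The share of such orders over all 986 genes listed in both tables was not computed. Groups were apart in 98.2% and 97.4% of all genes of the tables, so separation alone does not mark the members. The highest library headed Cal almost reached the lowest headed Model in Ccl9 (803 and 809.8) and Il27 (21.4 and 21.6). Cxcl5, for instance, had 6.70 ± 0.759 normalized counts (mean ± SD, n = 3) under the heading Con, 536 ± 152 under Cal and 5300.1 ± 1742 under Model. Il4ra had 337 ± 50.7, 955 ± 281 and 3449 ± 671 in the same order. Cx3cr1 and Ackr4 showed the reverse order, and Cx3cr1 went from 176 ± 36.2 in Con to 60.5 ± 13.9 in Cal and 1.53 ± 1.33 in Model.

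In the other members the libraries headed Cal were not in the middle or overlapped a neighbouring group. Csf1 and Ccl12 were highest in these libraries, with 1018 ± 218 normalized counts of Csf1 in Con, 12787 ± 1099 in Cal and 7101 ± 1775 in Model. Ccr2 and Il16 were lowest in the libraries headed Cal and highest in those headed Con, and Il16 had 134 ± 10.2 in Con, 32.8 ± 7.0 in Cal and 87.6 ± 12 in Model. Ackr2 was lowest in the libraries headed Cal (25.3 ± 14.7), while the libraries headed Con (68.4 ± 8.89) and Model (68.4 ± 11.3) overlapped. Ccrl2 was lowest in the libraries headed Con (mean 187), and those headed Cal and Model overlapped, with means of 934 and 1939. Since the libraries headed Cal enter each of these orders, under the headings of the mean columns the middle place would be that of the model hearts.

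**Figure D4:**
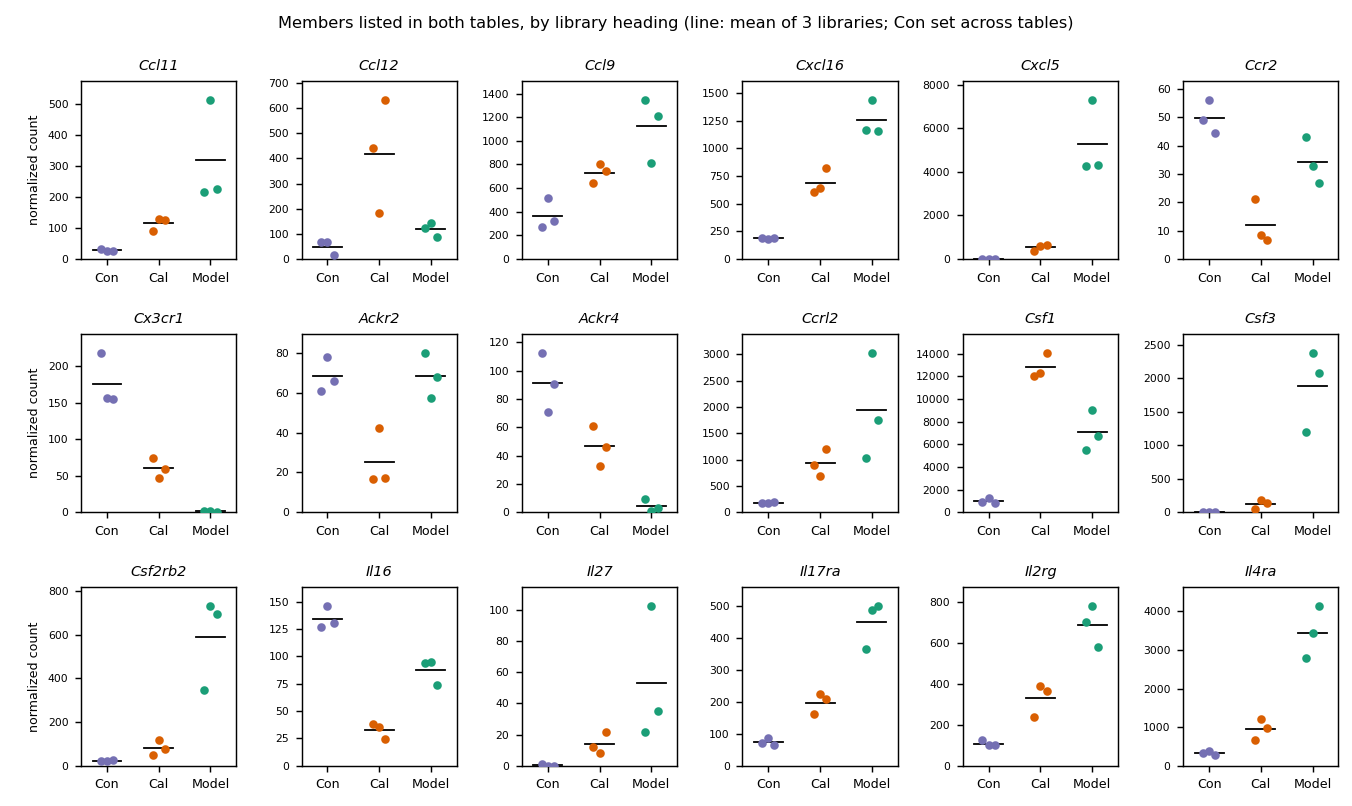
Normalized counts of the 18 members listed in both tables, with a point per library, a line at the mean of 3 libraries, and the libraries headed Con, Cal and Model from left to right in each panel, each on its own linear axis from 0. Values of the libraries headed Con were multiplied by 0.894, and panels such as Cxcl5, Csf3 and Il4ra increase from left to right, whereas Cx3cr1 and Ackr4 decrease and Csf1 peaks in the middle.

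The signalling genes downstream of these receptors were described with 4 lists of 101 genes in all. Of these, 43 were listed with Cal and Model, 21 lower and 7 higher under the heading Cal, where 31.6% of all listed genes were lower and 28.4% higher. Median-ratio scaling gave 16 lower and 10 higher, and quantile scaling 18 lower and 11 higher. Of 28 genes for Janus kinases, STAT factors and their inhibitors 16 were listed, 8 lower and 1 higher (Cish). The signal transducer Stat2 had 694 ± 357 normalized counts (mean ± SD, n = 3) under the heading Cal and 3156 ± 580.3 under Model, with a log2 fold change of -2.29 (SE 0.35, adjusted p = 0.0011). Socs1, a feedback inhibitor of Janus kinases, had a log2 fold change of -2.44 (SE 0.43, adjusted p = 0.002). The adaptors of the IL-1, IL-17 and IL-18 receptors were listed in 5 of 12 cases, 3 lower and 1 higher (Sigirr). The lower ones were the common adaptor Myd88 (log2 fold change -1.63, SE 0.23, adjusted p = 8.5e-04), the inhibitory kinase-like Irak3 (log2 fold change -3.21, SE 0.28, adjusted p = 1.9e-04) and the IL-17 receptor adaptor Traf3ip2 (log2 fold change -1.72, SE 0.27, adjusted p = 0.0012).

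Chemokine receptor signalling genes were listed in 13 of 26 cases in that table, 6 lower and 3 higher (Arrb2, Rgs2 and Elmo1). The uncalled Gnai3, Arrb1, Dock2 and Prex1 were also higher but inside the fold limit. The median log2 fold change of this list was 0.59, so it was not lower as a whole. Among the lower genes were the phosphoinositide kinase subunit Pik3r5 (log2 fold change -2.04, SE 0.34, adjusted p = 0.0015) and the myeloid Src family kinase Fgr (log2 fold change -3.11, SE 0.25, adjusted p = 1.8e-04). Related cytokines and receptors were listed in 9 of 35 cases, 4 lower and 2 higher. Osmr, the oncostatin M receptor, went from 4619.5 ± 1417 normalized counts in the libraries headed Model to 770.2 ± 286 in those headed Cal (log2 fold change -2.61, SE 0.33, adjusted p = 5.8e-04). Ebi3, the partner of Il27, was lower (log2 fold change -1.95, SE 0.26, adjusted p = 6.6e-04) and Kitl, the stem cell factor, was higher (log2 fold change 1.40, SE 0.44, adjusted p = 0.0153), while the other higher gene was Pf4.

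Of the 101 genes, 33 were listed with Cal and Con, 11 higher and 4 lower, where 18% of all listed genes were higher and 10.9% lower. Median-ratio scaling gave 8 higher and 7 lower. Both called genes of the Janus kinase list were inhibitors of the SOCS family, and Socs3 had 2586 ± 846 normalized counts in the libraries headed Cal against 72.8 ± 20.6 (log2 fold change 5.12, SE 0.27, adjusted p = 2.7e-06), while Socs1 had a log2 fold change of 3.16 (SE 0.40, adjusted p = 3.5e-04). Of the 6 adaptors listed Myd88 (log2 fold change 1.21, SE 0.17, adjusted p = 6.2e-04) and Irak2 (log2 fold change 2.39, SE 0.18, adjusted p = 1.7e-05) were higher and none lower. Chemokine receptor signalling genes were higher in 5 and lower in 1 of 9, with Rgs16, a brake on G protein signalling, in front (log2 fold change 3.94, SE 0.37, adjusted p = 6.8e-05), followed by Pik3r5 (log2 fold change 3.15, SE 0.37, adjusted p = 2.5e-04). Related cytokines and receptors were higher in 2 and lower in 3 of 8, the latter with the stem cell factor receptor Kit (log2 fold change -1.04, SE 0.21, adjusted p = 0.0028) and the chemerin receptor Cmklr1 (log2 fold change -1.05, SE 0.10, adjusted p = 9.1e-05).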

How the data were processed

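Cardiac RNA of 9 rats was sequenced after poly-A selection. Per the paper's Methods the authors mapped reads to a rat reference, made a count for each gene and ran DESeq2. The submitters' processing notes name Bowtie 0.12.2 and the mouse builds mm8 and mm9, and the deposited gene identifiers, coordinates and lengths in bases are of mouse genes on a build that is not named. Of the members, 52 symbols were found among rat genes of RefSeq (GRCr8), 2 as synonyms and 2 (Ccl8 and Csf2rb2) not.

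The deposited signal in the sample columns is a normalized count, a gene's reads divided by a size factor per library (0.820 to 1.17 in one table, 0.950 to 1.07 in the other), and 100% of values gave whole reads within 0.01 reads. The authors' log2 fold change, p-value and mean columns come from their own fit and were not used, apart from the mean columns to check the headings. The listed genes are those with a deposited adjusted p up to 0.0499 and 0.05. No column belonged to a sample of another series. Libraries were mapped to groups by sample heading.

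All listed genes of a table were fitted with limma 3.58.1 (R 4.3.3, trended prior variance) on log2(normalized count + 1), headed Cal minus the other group, with Benjamini-Hochberg adjustment. The adjustment covers only genes preselected on the same libraries, and 99.6% and 99.8% of them had an adjusted p under 0.05. Adjusted p-values here describe the listed genes and do not control a false discovery rate. The fold changes understate those of low genes. An exact permutation test of 3 against 3 libraries cannot go below p = 0.1, so none is quoted. A group without reads was set at 3 reads per library, and where a group had at most 10 reads the ratio has an exact conditional 95% interval, for counting error only. The scripts were tested on simulated data.

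The members and lists were chosen with earlier results of these data known, and the pair of Il19 and Il20rb was added after its values were seen. Members are named by role, and 1 member and 2 genes of the lists are not reported here. Values per library are given for members with a mean of at least 100 in a group and for pairs listed together, and from each list the 3 called genes with the largest fold among those with such a mean. Alternatives were DESeq2 1.42.0 and edgeR 4.0.16 run on recovered reads, a pseudocount of 0.1 or 10, quantile or median-ratio scaling, only genes with a mean of 10 or more, no fold limit, a limit of 0.01 on adjusted p, a replicate block and leaving out each library.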

Additional observations from a re-analysis of the deposited data

How the results depend on the processing

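The count of called members was 35 to 43 against Model and 24 to 26 against Con under every alternative that kept the fold limit, against 42 and 25 as reported. Without that limit all 47 and 27 listed members passed, as did 99.6% and 99.8% of all listed genes. No member changed direction under any alternative. Leaving out a library gave 38 to 41 and 24 to 26 called members, and 27 to 29 and 14 to 17 genes of the signalling lists. Without a fold limit all 43 and 33 listed signalling genes passed too, against 28 and 15. With the replicate number as a block 41 and 25 members and 28 and 15 signalling genes were called, and only Il2ra lost its call. Replicate numbers belong to different animals, and deviations of libraries with the same number correlated at -0.14 to 0.11. For libraries with different numbers the range was -0.20 to 0.25. With 3 libraries per group these values cannot tell whether a batch goes with the number. Quantile and median-ratio scaling shifted the median log2 fold change of all listed genes by 0.42 and 0.30 against Model and by -0.42 and -0.28 against Con. The share of higher genes among all called genes was 47.3% as reported, 54.2% and 61.1% under these scalings against Model, and 62.2%, 47.3% and 43.3% against Con. Counting each member under each alternative, a call was lost in 34 cases against Model and 7 against Con and gained in 7 and 4. A pseudocount of 10 ended the calls of Ccl19, Il17f, Il22, Il2ra, Il2rb, Il7r and Il17rb, which have few reads. Median-ratio scaling ended those of Cxcl14, Il17ra, Il2ra, Il2rg and Il27, and quantile scaling those of Ccl19, Cxcl14, Il17d and Il2rg, against Model, and both ended that of Ccl9 against Con. Both scalings brought Csf1 past the limits against Model and Ackr4 against Con, and DESeq2 and edgeR brought Ccrl2 past them against Model and ended the call of Ccl9 against Con. The 3 libraries per group and unknown total depth limit what can be said of genes with a few reads.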
